A study of Mus musculus with 4 samples.

Results

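Cytosolic ribosomal proteins are the protein component of the ribosome, and their genes were examined here in ATAC-seq peak lists from mouse pachytene spermatocytes. The genes were taken from a RefSeq gene table by symbol, in GRCm38.p6, of which mm10 has the same main chromosomes. A protein-coding gene counted when its symbol began with Rpl or Rps followed by a digit, p or a, leaving out the ribosomal S6 kinases, Rpl10l and names ending in -ps. This gave 88 of 21887 protein-coding genes on chromosomes 1 to 19, X and Y. Of the 88, 77 encode core subunits of the cytosolic ribosome, 46 for the 60S and 31 for the 40S subunit. The other 11 are 10 paralogs or retrocopies (Rpl3l, Rpl7l1, Rpl22l1, Rpl32l, Rpl36al, Rpl37rt, Rpl39l, Rps23rg1, Rps27l, Rps27rt) and Rps19bp1, which encodes a binding partner of a ribosomal protein and not a subunit.

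The study set a Znhit1 knockout against controls, to ask how ZNHIT1 acts on chromatin accessibility. ZNHIT1 is a subunit of the SRCAP remodelling complex, which places the histone variant H2A.Z. The labels describe 4 libraries of pachytene nuclei from testis, 2 per genotype (Znhit1_KO and CTRL), all with P35 in their titles. The sources used here give neither the way the knockout was made nor the alleles of the controls. The data are 1 peak list per genotype, recorded for the first replicate of each, so differences between genotypes stand without a replicate check or a p-value. The knockout list held 21004 separate intervals with a median width of 352 bp and the control list 15376 with a median of 427 bp. The depth behind each list is unknown, so a closed site and too few reads cannot be told apart where a peak is missing. Of 10 marker genes of pachytene spermatocytes, 7 had a peak near an end in each list, among them Sycp1, Piwil1 and Mybl1. Spag6 and Pgk2 had one in the knockout list alone, and Adam3 had none. Of all coding genes, 28.6% had one in both lists and 57.0% in neither. None of the 6 spermatogonial, 6 spermatid, 6 Sertoli cell, 5 Leydig cell and 6 peritubular, endothelial or blood cell markers had one in both. Stra8 and Dmrt1 of the spermatogonial markers and Acta2 of the last group had one in 1 list alone.

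The small subunit of the ribosome reads the messenger RNA and the large subunit joins amino acids. Each core protein is needed in about equal amounts, so the genes, which are scattered over the chromosomes, are transcribed together at a high rate in nearly all cells. Their mRNAs begin with a C followed by a tract of pyrimidines (the 5' terminal oligopyrimidine, or TOP, motif), through which growth signals control their translation. In pachytene spermatocytes the X chromosome is silenced, and autosomal copies of X-linked housekeeping genes are known to be expressed in its place in the male germ line.

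Most ribosomal protein genes had an accessible gene end, and most of these had one in both genotypes. Gene-end peaks are intervals at most 1 kb from the first or last annotated base of a gene. Of the 88 genes, 67 (76.1%, Wilson 95% interval 66.3 to 83.8, counting error only) had one in both lists, against 28.6% of all protein-coding genes. Another 6 (6.82%) had one in the knockout list alone, where the share of all coding genes was 9.81%, and 3 (3.41%) in the control list alone, against 4.66%. The remaining 12 had none. Among genes with any gene-end peak, 88.2% of the ribosomal protein genes and 66.4% of all coding genes had one in both lists. In both lists stood 38 of 46 (82.6%, 69.3 to 90.9) and 25 of 31 (80.6%, 63.7 to 90.8) core genes of the 60S and 40S subunits, whose intervals overlapped. Counting only intervals that appear 2 or more times in their list left 41 of the 88 genes (46.6%) in both. By this rule 13 (14.8%) were knockout-only and 10 (11.4%) control-only. For all coding genes the same rule gave 15.9%, 7.71% and 6.56%. The shares in 1 list alone were thus above those of all coding genes, whereas in the main count they were below. The comparison with all coding genes is a description, since those include many genes that are silent in these cells.

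**Figure D1:**
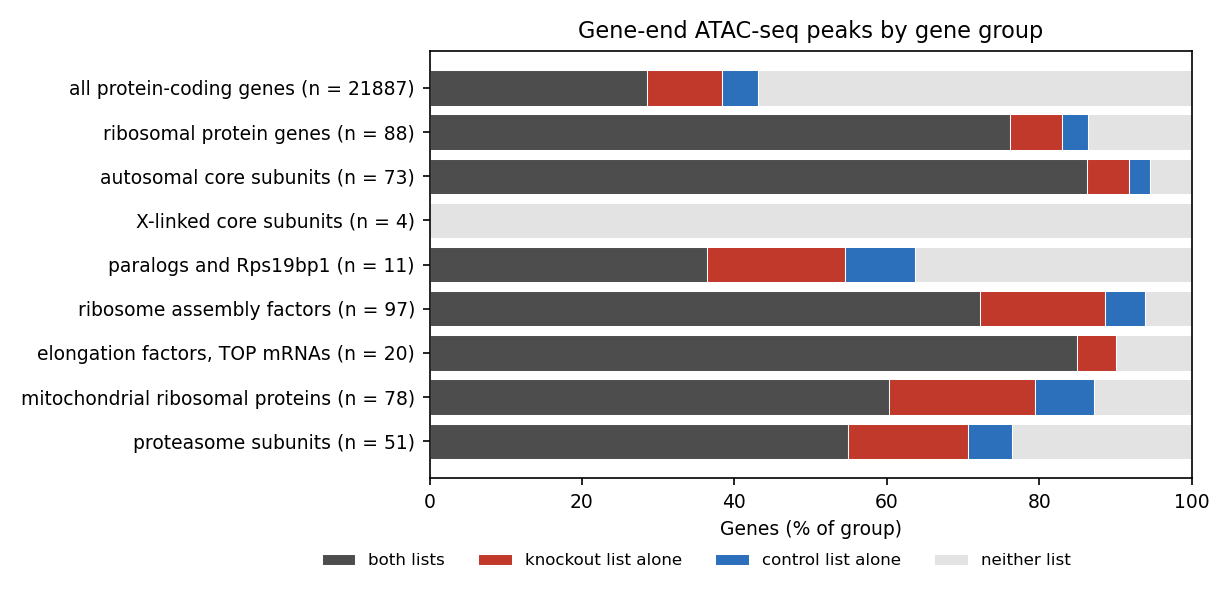
Share of genes (%, horizontal axis) with a gene-end peak in both lists, in 1 list alone or in neither, for all protein-coding genes, for the ribosomal protein genes and their subsets, and for related groups. The bar of the 73 autosomal core subunits is dark or coloured (a peak in at least 1 list) up to 94.5%, while that of the 4 X-linked core subunits is light grey (neither list) throughout.

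All 4 core subunits encoded on the X chromosome lacked a peak in either list. They are Rpl10, whose protein lies near the peptidyl transferase centre, Rpl36a, Rpl39, whose protein lines the exit tunnel, and Rps4x of the small subunit. The peak nearest to an end of Rpl10 lay 23.8 kb away in the knockout and 23.7 kb away in the control. For Rps4x the nearest lay 390 kb away in both lists. The nearest to Rpl36a lay 12.9 kb away in the knockout and 109 kb in the control. Rpl39 had its nearest knockout peak at 24.8 kb and its nearest control peak 3670 kb away. These genes were thus far from any listed site, and most X-linked genes were like them: 866 of 966 X-linked coding genes (89.6%) had no gene-end peak in either list, and 39 (4.04%) had one in both. With 4 genes, a share in both lists of 0 has a Wilson upper bound of 49.0%.

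Among the 73 autosomal core genes, 63 stood in both lists, 4 were knockout-only, 2 were control-only, and Rpl17, Rpl18, Rpl19 and Rps2 had no gene-end peak. For 3 of the X-linked genes there are autosomal counterparts that can be set beside them. Rpl36al, a copy on chromosome 12, had a broad peak (knockout 1009 bp, control 1132 bp), close to an end of the neighbouring Mgat2 too. Rpl39l, a copy expressed in testis, had a peak of 408 bp over its start in the control list alone (chromosome 16, 10170011 to 10170418), and its nearest knockout peak lay 17.4 kb away. Rpl10l, a retrogene on chromosome 12 that stands in for Rpl10 in male meiosis and is not among the 88, had a peak in each list (knockout 732 bp, control 926 bp).

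The annotated ends of a gene do not always include the start of the ribosomal protein mRNA, and several genes without a gene-end peak had one over an internal start. For 68 of the 88 genes a RefSeq table of promoters gave 1 or more annotated mRNA starts with strand. A peak lay over an annotated start in both lists at 55 of these 68 (80.9%), against 27.0% of all coding genes with a start in that table. Of the 57 core subunit genes among them, 51 had such a peak in both lists, Rps3 in the knockout alone and Rps27 in the control alone. The 4 without one were the 4 X-linked genes, so all 53 autosomal core genes with an annotated start had a peak over it in at least 1 list.

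Rpl18, Rpl19, Rps2 and Rps27l have gene models that begin well upstream of the start of the ribosomal protein mRNA, and Rpl22 has a second, internal start. At Rps2, which helps form the mRNA entry channel, the start lies 1.94 kb inside the gene model and was covered by peaks of 687 bp (knockout) and 400 bp (control). At Rpl18 the start lies 2.6 kb inside and the peaks were 832 and 608 bp wide. At Rpl19, whose protein contacts both subunits in the joined ribosome, the start 4.92 kb inside lay under peaks of 664 and 868 bp. Another Rpl19 start, 4.71 kb inside, lay under a separate knockout peak of 296 bp and the same control peak. The internal start of Rpl22 lies 1.29 kb from the 5' end and had peaks of 660 and 952 bp, although the count by gene ends put this gene in the control alone. At Rps27l, a p53-responsive paralog of Rps27, the peaks over the start 1.46 kb inside were 521 and 770 bp wide. Rpl17, with no start in the table, had its nearest peaks 1.2 kb from a gene end in the knockout and 1.21 kb in the control. The genes closest to the 1 kb limit were Rpl22 on the inside, with its control peak 935 bp from the gene end, and Rps27l on the outside, with its knockout peak 1003 bp away. The control peak nearest to Rpl37rt lay 1016 bp from its end.

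**Figure D2:**
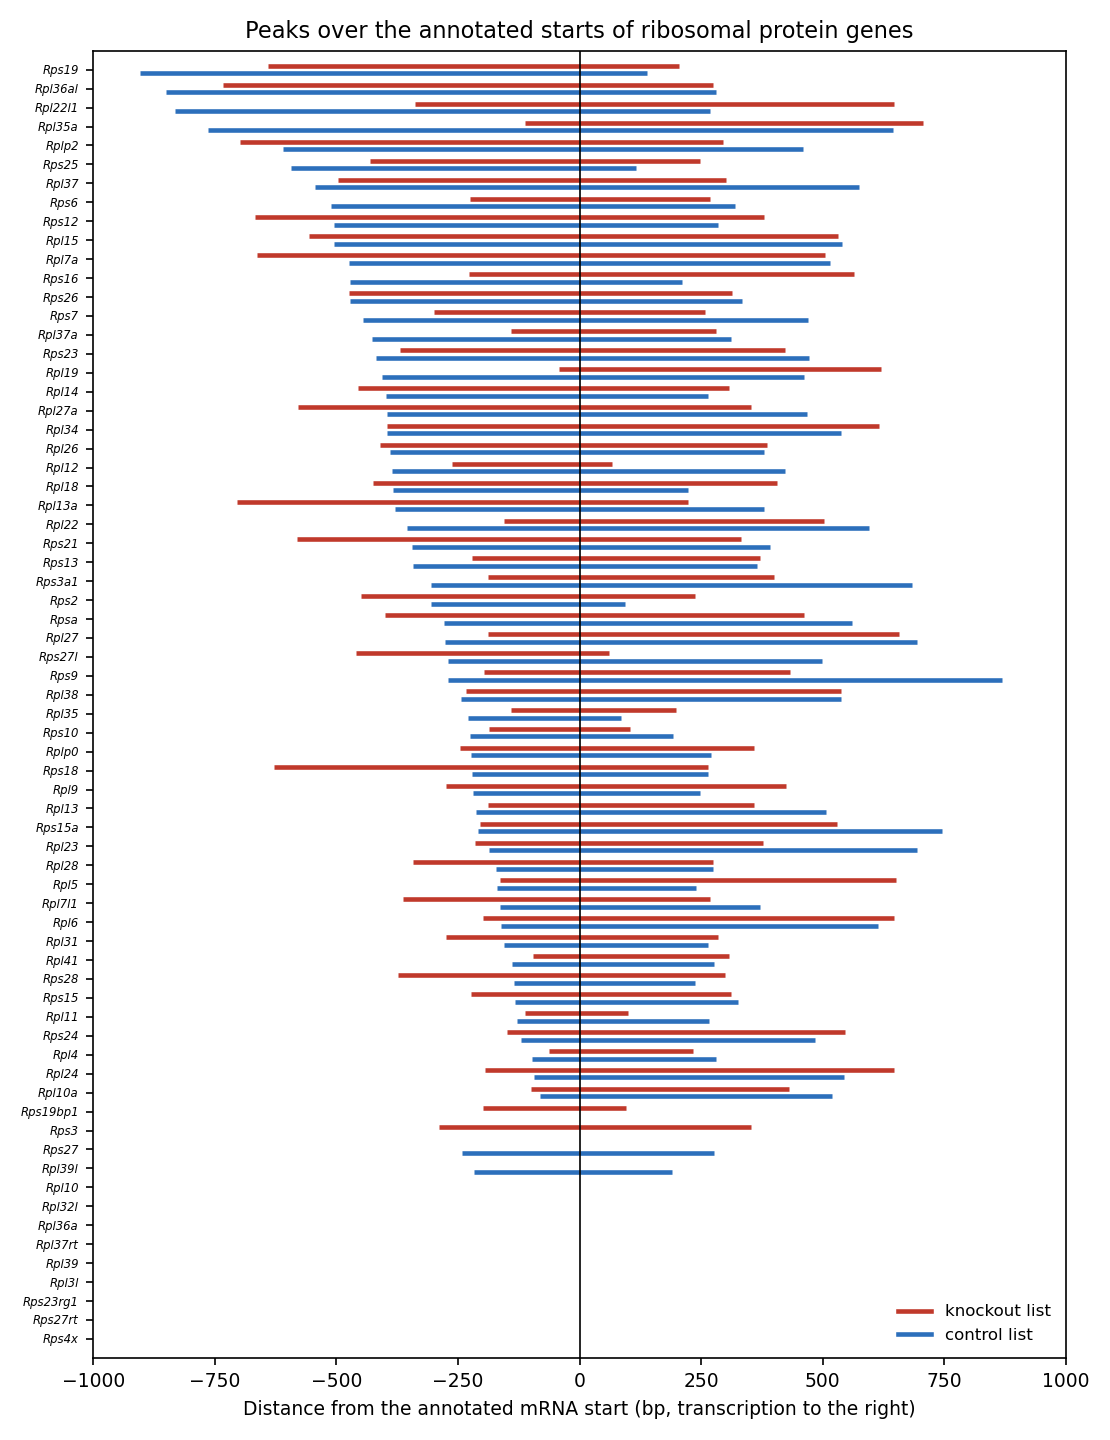
Extent of the peak over an annotated mRNA start at each of the 68 genes with one, as distance from that start (bp, horizontal axis, transcription to the right), for the knockout and the control list. The 55 genes with both bars have peaks that span the start, and the lowest 9 genes, among them the 4 X-linked ones, have no bar.

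Peaks over the starts had a longer median reach into the gene than upstream of it in each list. Over the 55 genes with a peak at the start in both lists, the median reach was 274 bp upstream and 359 bp downstream in the knockout, and 306 bp upstream and 380 bp downstream in the control. The peak extended further downstream than upstream at 30 of the 55 genes in the knockout and at 38 in the control. The same counts were not made over all coding genes, so this is not shown to be particular to the group. In the plot of peak extents the edges furthest apart belong to Rpl35a, with upstream edges at -113 bp (knockout) and -764 bp (control). Rps18 likewise differed upstream (-629 and -221 bp) and shared its downstream edge. Rps9 (432 and 868 bp) and Rpl5 (651 and 240 bp) differed at the downstream edge, in opposite directions.

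In 4 core genes (5.19%, against 9.81% of all coding genes) a peak was present in the knockout list alone. None of these peaks overlapped a control interval, but the same share was not computed over all coding genes. Rps14, a small subunit gene that is haploinsufficient in human 5q- syndrome, had the widest, 1165 bp (chromosome 18, 60774248 to 60775412), listed 4 times, with the nearest control peak 70007 bp away. Rpl30 had one of 774 bp (chromosome 15, 34443123 to 34443896), listed 3 times, with the nearest control peak 357 kb away. Rps3, whose protein binds mRNA at the entry to the small subunit, had one of 643 bp (chromosome 7, 99483357 to 99483999). For comparison, the median knockout width over the 67 genes in both lists was 727 bp. Outside the core genes, the knockout alone also held peaks at Rps23rg1 (313 bp, 458 bp from the gene end and not over its start) and Rps19bp1 (294 bp), and each of these intervals was listed once.

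In the control list alone, Rps27 had a peak of 518 bp (chromosome 3, 90213372 to 90213889), next to an end of Rab13. Its nearest knockout peak was 17.9 kb from the gene. Rpl39l and Rpl22, described above, were the other genes of this class, and the Rpl22 peak overlapped a knockout interval outside the window. With 1 list per genotype these absences cannot be told apart from a difference in depth or in peak calling.

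Of the 10 paralogs, 4 had a gene-end peak in each list. Besides Rpl36al these were Rpl22l1, a paralog of Rpl22 (987 and 1102 bp in knockout and control), Rpl7l1 (633 and 536 bp) and Rpl3l. Rpl3l replaces Rpl3 in heart and skeletal muscle, and its peaks (623 and 268 bp) lay at the 3' end of the gene beside Msrb1, with no peak over either of its starts. The retrocopies Rpl32l, Rpl37rt and Rps27rt had none in either list. Their nearest knockout peaks lay 11803, 8684 and 48236 bp away and their nearest control peaks 59.4, 1.02 and 4.13 kb away, in that order. A neighbour can share the peak. At 20 of the 76 genes with any gene-end peak, the widest in at least 1 list was also a gene-end peak of another coding gene. Examples are Med22 beside Rpl7a, Nkiras1 beside Rpl15 and Ndufa7 beside Rps28. The same share over all coding genes was not computed.

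Median peak widths of the group were close between the lists. Gene by gene, the log2 widths in the lists had a Pearson correlation of 0.47, and 0.51 over all coding genes in both lists. At all 67 genes in both lists the widest knockout and control peaks overlapped, by 40.9% to 98.7% of the wider peak (median 75.5%). This overlap was not computed for all coding genes. The widest peak per gene had a median of 727 bp in the knockout (213 to 1169 bp) and 738 bp in the control (268 to 1409 bp). Over all 6255 coding genes in both lists the medians were 758 and 714 bp. The log2 ratio of knockout to control width had a median of -0.02 (quartiles -0.31 and 0.26), beside 0.04 (-0.29 and 0.40) over all coding genes in both lists. The peak was wider in the knockout at 32 of the 67 genes (47.8%), against 53.2% of all coding genes in both lists, and the widths lay within 1.5-fold of each other at 49 (73.1%), against 71.4%. Both shares were near those of all coding genes. An interval was listed at least 2 times at 50 of the 67 genes in each list, which is 74.6% against 69.9% of all coding genes in the knockout and 71.5% in the control.

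**Figure D3:**
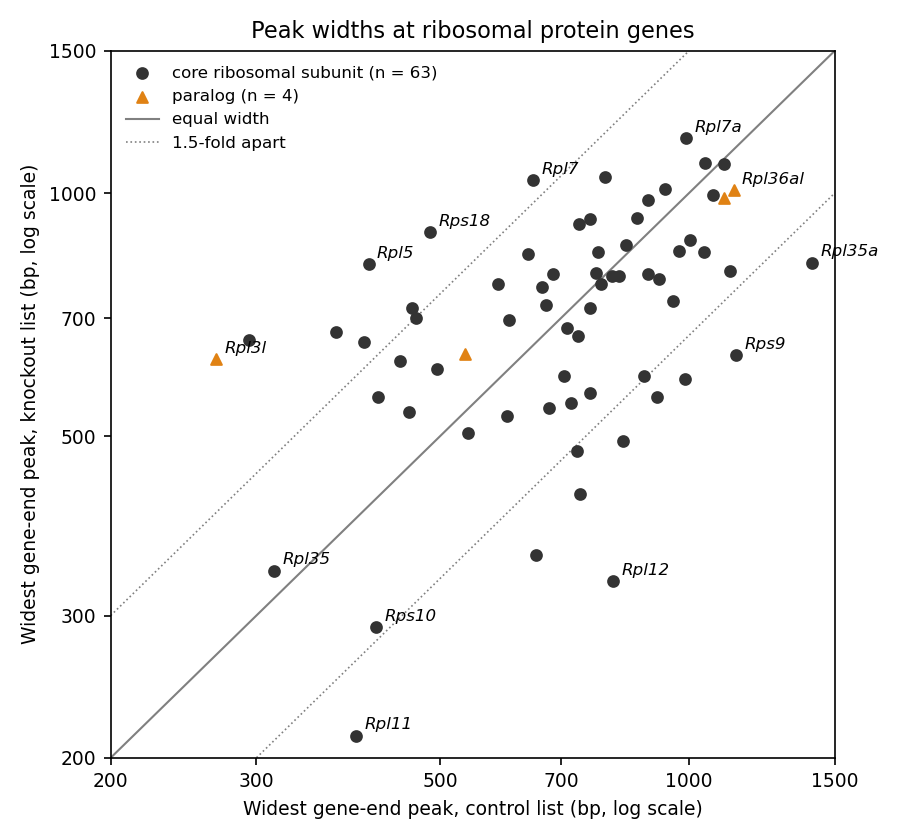
Width of the widest gene-end peak (bp, log scales) in the control list (horizontal) and the knockout list (vertical) for the 67 genes with a peak in both, with lines of equal width and of 1.5-fold difference. Of the 67 points, 49 lie between the dotted lines, 32 lie above the line of equal width and 35 below it.

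Among the 67 genes in both lists, 3 of the 5 genes with the broadest knockout peaks had control peaks of 991 bp or more, and Rps12 and Rpl7 had narrower ones. Rpl7a had a knockout peak of 1169 bp and a control peak of 991 bp (chromosome 2, 26910144 to 26911312 and 26910333 to 26911323). Rpl15, which binds near the 5.8S rRNA, had peaks of 1089 and 1045 bp. At Rps29, a zinc-binding protein of the small subunit, they were 1085 and 1103 bp, and overlapped over 98.4% of the wider. Rps12 had 1048 and 791 bp and Rpl7 1038 and 648 bp. In at least 1 list the Rpl7 peak was also a gene-end peak of Rdh10. In these 5 genes the knockout interval was listed 3 or 4 times. The narrowest of these knockout peaks was that of Rpl11, 213 bp against 396 bp in the control. Among the same 67 genes, Rps10 followed with 290 and 419 bp, then Rpl12 with 331 and 809 bp, Rpl35 with 341 and 315 bp, and Rpl36 with 356 and 653 bp. All 5 of these knockout intervals were listed once.

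Single genes differed in width in each direction. The peak was narrower in the knockout by the most at Rpl12, whose protein forms the base of the ribosomal stalk, with a log2 ratio of -1.29 and 40.9% overlap. Rpl11, a partner of the 5S rRNA that also inhibits MDM2, had a log2 ratio of -0.89, Rpl36 -0.88, Rps9 -0.85 (630 against 1139 bp) and Rpl37a -0.80 (424 against 738 bp). Rpl36, beside Micos13, had 2 gene-end peaks in each list, with total widths of 691 bp (knockout) and 1017 bp (control), and its ratio compares only the widest. The peak was wider in the knockout by the most at Rpl3l (1.22), away from its start. Among the other large ratios, Rpl5, the second protein partner of the 5S rRNA, had 0.99 (816 against 410 bp), Rps18 0.88 (895 against 487 bp) and Rps28 0.85 (673 against 374 bp). Of the 5S rRNA partners, Rpl5 thus had the wider peak in the knockout and Rpl11 the narrower. In at least 1 list the peaks of Rpl12, Rps18 and Rps28 were also gene-end peaks of Lrsam1, Vps52 and Ndufa7, in that order. None of these width differences can be set against a spread between replicates. For scale, ratios at or below that of Rpl12 made up 1.81% of all coding genes in both lists, and Rpl3l stood at percentile 96.7.

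Genes with related roles are set side by side here. The acidic stalk is built on Rplp0, where the knockout peak was 605 bp wide and the control peak 496 bp. Its partners Rplp1 and Rplp2, which recruit elongation factors, had 772 and 588 bp, and 995 and 1070 bp. The stalk genes thus lay on each side of equal width. At the exit tunnel, Rpl23a had 654 against 405 bp, Rpl31 559 against 421 bp and Rpl26 796 against 771 bp. Rpl4, whose protein reaches into the tunnel, was wider in the control and had its widest peaks (542 and 677 bp) between its own start and Zwilch, and further peaks of 298 and 380 bp over the start. The X-linked Rpl39 of the tunnel had no peak. Several small subunit genes mutated in Diamond-Blackfan anaemia in people could be compared. Rps19 had peaks of 845 and 1043 bp, Rps24 of 697 and 606 bp, and Rps26 of 789 and 808 bp. Rps7, wider in the control, had 560 and 915 bp. Rpl35a, a large subunit gene of that disease, had the broadest control peak of all 67 (1409 bp), against 820 bp in the knockout. In at least 1 list the Rpl35a peak was also a gene-end peak of Iqcg. Rps6, the target of the S6 kinases, had 494 and 832 bp, and Rpsa, also known as a laminin receptor precursor, 863 and 840 bp. Rpl38, whose loss in mice disturbs translation of Hox mRNAs, had nearly identical peaks of 772 and 782 bp. Rps27a, made as a fusion with ubiquitin, had 721 and 760 bp.

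The promoter sequences show the pyrimidine tract of ribosomal protein genes close to the annotated start in some cases and not in others. The windows printed run from 70 bases before to 30 bases from the annotated start, 5' to 3' on the coding strand, from the RefSeq promoter table for GRCm38.p6. Capitals mark the longest run of C and T that meets the 10 bases to each side of the start, where it is 6 bases or more. The first set holds genes with a peak over the start in 1 list alone, Rps3 in the knockout and Rps27 and Rpl39l in the control.
Rps3 (chr7:99483680-99483779, minus strand): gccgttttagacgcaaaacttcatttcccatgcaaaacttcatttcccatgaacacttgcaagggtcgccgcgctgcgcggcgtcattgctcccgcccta
Rps27 (chr3:90213619-90213718, minus strand): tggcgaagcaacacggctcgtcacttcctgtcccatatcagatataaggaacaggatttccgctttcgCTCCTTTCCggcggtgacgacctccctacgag
Rpl39l (chr16:10170158-10170257, plus strand): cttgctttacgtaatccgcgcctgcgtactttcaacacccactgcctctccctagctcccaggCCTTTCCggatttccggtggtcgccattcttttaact

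Rps27 has a run of 9 pyrimidines that includes a C at the first base, the form of a TOP start, and Rps3 has none of 6 or more. The second set holds genes with broad peaks in both lists (Rpl7a and Rpl15), narrow peaks (Rpl11 and Rps10) and strongly differing widths (Rpl12 and Rps9, wider in the control, and Rps18, wider in the knockout).
Rpl7a (chr2:26910737-26910836, plus strand): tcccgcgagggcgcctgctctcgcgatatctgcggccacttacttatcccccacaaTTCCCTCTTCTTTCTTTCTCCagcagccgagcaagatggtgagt
Rpl15 (chr14:18270957-18271056, minus strand): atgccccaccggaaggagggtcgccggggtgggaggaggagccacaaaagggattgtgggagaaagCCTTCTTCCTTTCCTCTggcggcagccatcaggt
Rpl11 (chr4:136053364-136053463, minus strand): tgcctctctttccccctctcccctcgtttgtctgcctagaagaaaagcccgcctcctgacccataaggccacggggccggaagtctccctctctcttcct
Rps10 (chr17:27635215-27635314, minus strand): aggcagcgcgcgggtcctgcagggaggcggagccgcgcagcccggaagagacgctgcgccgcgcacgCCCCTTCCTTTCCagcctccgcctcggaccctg
Rpl12 (chr2:32961642-32961741, plus strand): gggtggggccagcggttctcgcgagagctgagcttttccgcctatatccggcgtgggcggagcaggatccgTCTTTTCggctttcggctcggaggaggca
Rps9 (chr7:3703971-3704070, plus strand): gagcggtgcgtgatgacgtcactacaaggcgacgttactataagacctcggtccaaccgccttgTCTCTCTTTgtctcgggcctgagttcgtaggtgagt
Rps18 (chr17:33955636-33955735, minus strand): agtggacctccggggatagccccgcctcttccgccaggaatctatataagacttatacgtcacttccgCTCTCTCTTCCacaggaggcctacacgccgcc

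The run is 21 bases long in Rpl7a, 17 in Rpl15, 13 in Rps10, 11 in Rps18, 9 in Rps9 and 7 in Rpl12. Rpl11 has none so close to its annotated start, but a long tract of pyrimidines ends its printed window. The rule for runs thus missed this tract of Rpl11, and how often it does so at other genes was not tested. The third set holds 3 of the X-linked genes that had no peak.
Rpl10 (chrX:74270746-74270845, plus strand): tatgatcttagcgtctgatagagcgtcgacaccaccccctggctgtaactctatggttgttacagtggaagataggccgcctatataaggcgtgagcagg
Rps4x (chrX:102189362-102189461, minus strand): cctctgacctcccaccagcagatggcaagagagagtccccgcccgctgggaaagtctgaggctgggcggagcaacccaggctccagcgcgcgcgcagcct
Rpl39 (chrX:37085193-37085292, minus strand): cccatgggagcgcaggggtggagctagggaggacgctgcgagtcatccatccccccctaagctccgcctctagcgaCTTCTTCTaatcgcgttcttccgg

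Of these 3, Rpl39 has a run of 8, and Rpl10 and Rps4x have none. A C stood at the first base of 24 of the 68 windows (35.3%) and of 13.7% of all 17492 coding promoters in the table. None of the 4 X-linked genes had it.

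Short motifs were counted on both strands, once per promoter, over the 300 bases of each promoter in the table. These are 250 bases before and 50 after the outermost annotated start of each gene. The peak can lie over another start of the gene, as at Rpl22, where only the internal start had one. A run of at least 6 pyrimidines at the start, on the coding strand only, was found in 32 of the 55 genes with a peak over the start in both lists (58.2%), against 25.8% of the 4726 coding genes with the same property and 28.4% of all coding promoters. The ETS core CCGGAAG, bound by factors such as GABPA, was found in 23 of the 55 (41.8%), against 25.0% and 11.9%. The letters TCTCGCGA, part of the palindrome bound by BANP, were in 10 of the 55 (18.2%), among them Rpl7a, Rpl12, Rps6 and Rps28, against 4.27% and 1.53%. The YY1 core AAGATGGC was in 5 (9.09%, against 6.71% and 3.21%) and the cyclic AMP response element (CRE) core TGACGT in 12 (21.8%, against 16.4% and 8.71%). The SP1 box GGGCGG was in 34 (61.8%), beside 72.9% of coding genes with a peak over the start in both lists and 46.3% of all coding promoters. The E box CACGTG was in 5 (9.09%, against 12.4% and 7.91%), the TATA box TATAAA in 5 (9.09%, against 5.08% and 13.3%) and the ZNF143 core ACTACAA in 3 (5.45%, against 4.87% and 3.82%). These shares describe letters and not binding, and the 4 X-linked genes held an ETS core in 1, an SP1 box in 3 and a TATA box in 2. The letters of the SP1 box can overlap those of an ETS core, and each motif was counted without regard to the others.

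**Figure D4:**
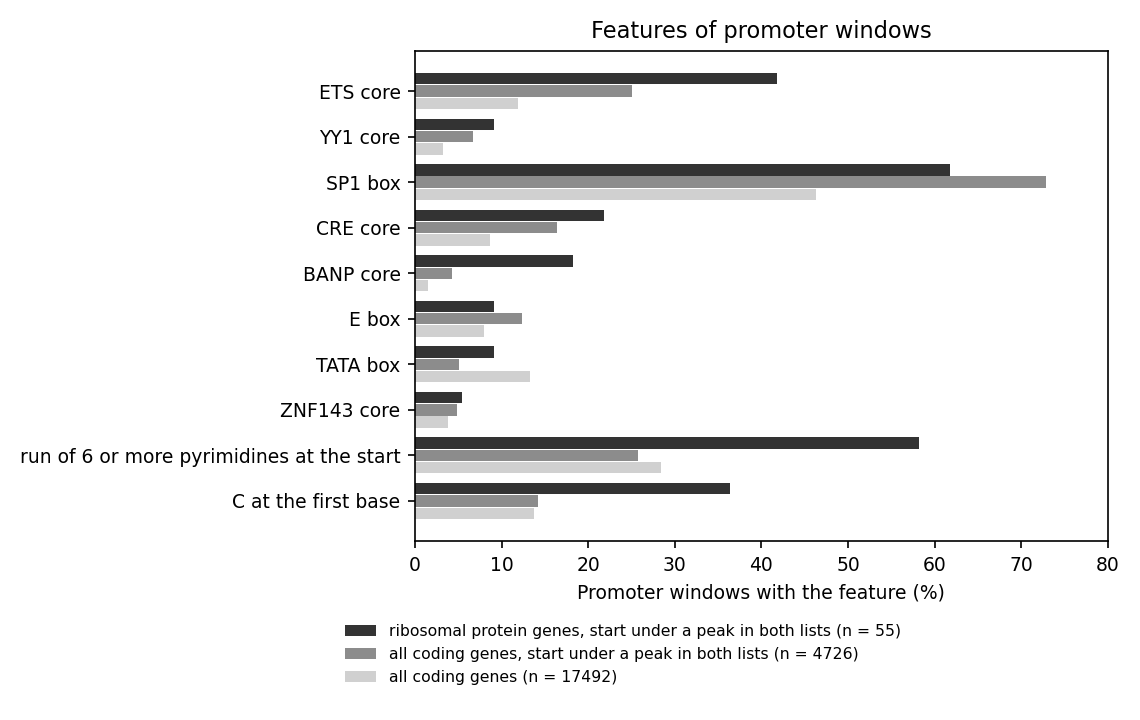
Share of promoter windows (%, horizontal axis) that hold each motif or feature, for ribosomal protein genes and for all coding genes with a peak over an annotated start in both lists, and for all coding genes. Pyrimidine runs reach 58.2% in the ribosomal protein genes and 25.8% in all coding genes with such a peak, which include them. The SP1 box reaches 61.8% and 72.9%.

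Base composition was compared over the same promoters. The median GC content was 59.3% over the 55 genes, 63.0% over the 4726 coding genes with a peak over the start in both lists and 56.3% over all 17492. The median ratio of observed to expected CpG was 0.909, 0.846 and 0.577, in the same order. The ribosomal protein promoters thus lay between the other groups in GC content and above both in the CpG ratio. The X-linked genes had a median GC content of 55.5%, below the median of each of these groups. Their CpG ratios, 0.598 to 0.822, lay below the medians of the 55 and the 4726 genes and above that of all 17492.

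Ribosomal protein genes are short, and many carry small nucleolar RNA genes, which guide rRNA modification, in their introns. The 88 genes had a median length of 3.21 kb, against 17.2 kb over all coding genes. At least 1 snoRNA gene lay inside 30 of them, 59 in all, with 5 in Rpl4 and 4 each in Rpl7a and Rpl13a. A gene-end peak was present in both lists at 23 of the 30 genes with a snoRNA gene (76.7%, 59.1 to 88.2) and at 44 of the 58 without (75.9%, 63.5 to 85.0), so the intervals overlapped. Of all 372 coding genes with a snoRNA gene inside, 50.8% had a peak in both lists.

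Other genes of ribosome production had accessible ends in most cases too. Fau (knockout 897 bp, control 1262 bp) and Rack1 (792 and 316 bp), ribosomal proteins with other names, had a peak in both lists. Of 97 ribosome assembly factors, 70 (72.2%) stood in both lists, 16 were knockout-only, 5 were control-only and 6 had no peak. Among those in both were Fbl, the rRNA methyltransferase fibrillarin (1293 and 823 bp), Ncl, nucleolin (1711 and 1122 bp), and Npm1, nucleophosmin (984 and 1306 bp). Proteins of snoRNA particles stood in different classes: Snu13 (720 bp), Nhp2 (654 bp), Nop58 (413 bp) and the X-linked Dkc1 (247 bp) were knockout-only and Nop10 (545 bp) control-only. Fbl, Nop56 (732 and 905 bp) and Gar1 (1097 and 810 bp) were in both lists. Of 12 genes of the RNA polymerase I machinery, 8 had a peak in both lists, and Ubtf had none in either. Of 20 elongation factor and other TOP mRNA genes, 17 (85.0%) had one in both, including Eef1a1 (1423 and 1577 bp), Eef2 (765 and 636 bp) and Pabpc1 (897 and 873 bp). Eif3f (675 bp) was in the knockout alone, and the X-linked Eif2s3x had none.

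The mitochondrial ribosome and the proteasome, other multi-subunit machines, were set beside them. Of 78 mitochondrial ribosomal protein genes, 47 (60.3%, 49.2 to 70.4) stood in both lists, 15 were knockout-only and 6 control-only. Of 51 proteasome subunit genes, 28 (54.9%, 41.4 to 67.7) stood in both, with 8 knockout-only and 3 control-only. The share without any peak was 12.8% for the mitochondrial ribosome, 23.5% for the proteasome and 13.6% for the cytosolic ribosome. Their intervals for the share in both lists overlapped that of the 88 cytosolic genes for the mitochondrial ribosome and, narrowly, for the proteasome. No test of these differences was run.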

How the data were processed

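ATAC-seq peak lists of pachytene spermatocytes were used, 1 for the Znhit1 knockout and 1 for the control, each recorded for the first replicate. The sources used here do not say if a list comes from 1 library or from pooled replicates. Files of the second replicate were not analysed here. The lists deposited by the authors have 3 columns, chromosome, start and end, with no height or score. Per the submitters' processing notes the tools were MACS2 2.2.4, Bowtie2 2.3.4.3, cutadapt 2.5 and Picard 2.20.7, with mm10 as the build. The sources used here state no thresholds, duplicate filters or Tn5 shift. The knockout and control lists have 29656 and 24167 lines, and an interval on several lines was counted once. The deposited intervals carry no depth, so a width depends on coverage and on the caller. The Wilson intervals quoted cover counting error only.

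Positions are 1-based. Gene ends came from RefSeq GRCm38.p6, which gives no strand, and starts from its promoter table (68 of the 88 genes matched). Analyses used Python 3.11.15, numpy 2.4.6, pandas 2.3.3, scipy 1.17.1 and matplotlib 3.10.9. On simulated intervals all 400 of 400 genes were put in the right class, and bedtools 2.31.1 gave the same 8402 (knockout) and 7274 (control) genes. The genes, gene lists (171 of 174 entries matched) and motifs were chosen with earlier results of these data known. Named were genes in 1 list alone or in neither, the 5 widest and narrowest knockout peaks, the 5 largest and smallest width ratios, the X-linked genes with their paralogs and those nearest the window's limit, while some results for single genes are not reported here. Members named by role, the printed promoters within that rule and the examples from other lists were chosen after their values were seen.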

Additional observations from a re-analysis of the deposited data

How the results depend on the processing

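No paired analysis was possible because there is 1 peak list per genotype, and for the same reason no replicate could be left out. The number of ribosomal protein genes in both lists (67) was 62 to 72 over 5 alternatives: windows of 500 bp or 3 kb, a minimum width of 300 bp, equal numbers of the widest intervals, and 50% overlap of both peaks. It was 67 with peaks merged within 200 bp and 63 of the 77 core subunits. Requiring 2 or more listings per interval left 41 genes in both, 13 knockout-only, 10 control-only and 24 with no peak. A window of 3 kb left 6 in neither. At a minimum width of 300 bp 5 were in the control alone. Over the 68 genes with an annotated start, fewer genes by construction, 3 were in the knockout alone both by start and by gene ends, and 2 with a peak over the start itself. The count by gene ends over the 68 and that of peaks over the start were chosen after seeing the data. The median log2 width ratio, -0.02, was -0.05 to 0.04 over all alternatives. Its sign turned with merged peaks, with total width, and by gene ends over the 68 genes (each 0.04). Its 95% order-statistic interval, -0.16 to 0.12, covers the spread over genes within 1 pair of lists and no variation between replicates. Unknown depth limits every statement that a peak is absent.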
